A study of Mus musculus with 18 samples.

Results

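Pulmonary surfactant and the organelle that stores it were followed through 10 mouse genes, taken by symbol: Sftpa1, Sftpb, Sftpc and Sftpd for the surfactant proteins, Abca3 and Lamp3 for the lamellar body, Slc34a2, Napsa and Lpcat1 for transport, processing and lipid remodelling, and Etv5 for transcription. Of these 10 genes, out of 23356 features in the deposited table, 9 had an estimate in every library, and all 9 passed the filter on low counts. Sftpc, the type 2 cell's most specific surfactant protein gene, carried the Cuffdiff status HIDATA in all 18 libraries. That status marks a locus with too many fragments to be estimated and puts 0 in place of a value, so no level of Sftpc is given and its 0 is no measurement.

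The libraries were made from poly(A) RNA of frozen whole lung of male C57BL/6 mice, 12 to 16 weeks old at collection. Besides wild type mice the study used β-arrestin 1 -/- mice and mice labelled β-arrestin 2 -/-. The β-arrestins are adaptors that bind activated G protein-coupled receptors. Mice of each genotype spent 4 weeks in normoxia (a labelled oxygen pressure near 150 mmHg) or in chronic hypoxia at the air pressure of 18000 feet (near 70 mmHg), with 3 libraries, numbered 0 to 2, in each of the 6 groups. No promoter, Cre driver or cell type limits the deletions in the labels, and nothing there says whether a library is 1 animal, so a p-value here reflects library-to-library spread alone, which may be technical. Whole lung mixes all lung cell types, so fewer type 2 cells and less RNA per type 2 cell cannot be told apart in any value below.

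Alveolar type 2 cells make surfactant, a film of phospholipid and protein that keeps alveoli open at low volume. Its lipids are made in the endoplasmic reticulum, loaded by the transporter ABCA3 into lamellar bodies together with the hydrophobic proteins B and C, and released by exocytosis when purinergic receptors are stimulated. Proteins A and D are collectins, soluble lectins that bind microbes and help recycle surfactant, and released surfactant is taken up again by type 2 cells or broken down by alveolar macrophages.

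The genes lie on mm10 as follows, in the coordinates of the deposited table, and all are protein-coding genes counted over their exons. Sftpa1 (chr14:41131788-41136373) and Sftpd (chr14:41172212-41185198) are near each other on chromosome 14, where Sftpc (chr14:70520942-70524081) also lies. Sftpb is at chr6:72303248-72314370, Abca3 at chr17:24352046-24414513, Lamp3 at chr16:19653381-19706365 and Etv5 at chr16:22381313-22439570. Slc34a2 is at chr5:53049353-53071663, Napsa at chr7:44572445-44586846 and Lpcat1 at chr13:73467383-73514538. Exons of Abca3 share 914 bases with D330041H03Rik and those of Napsa share 502 bases with Gm15396, both on the opposite strand, and the kit did not mark strand, so fragments of these pairs cannot be told apart.

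The sequence before the start site is shown for 3 of the genes, since Sftpa1 and Sftpb had nearly the same course over the libraries and Lamp3 is the only one of the 9 that was called in any fit, with 2 libraries left out. That call was for hypoxia in the libraries labelled β-arrestin 2 -/-, where the same fit called 3847 of all genes. Windows came from RefSeq (GRCm38.p6), where 7 of the 10 symbols matched, and hold up to 250 bases before the start, 5′ to 3′ on the gene's strand, ending before any transcribed untranslated base. Capitals mark matches, on either strand, to CTCAAG (a core bound by NKX2-1, the lung epithelial homeodomain factor), TGTTTGC or TGTTTAC (forkhead factor cores) or TATAAA. The windows are chr6:72304360-72304609 (plus strand) for Sftpb, which lies inside the longer deposited locus, chr14:41131538-41131781 (plus strand) for Sftpa1 and chr16:19706376-19706615 (minus strand) for Lamp3.
Sftpb: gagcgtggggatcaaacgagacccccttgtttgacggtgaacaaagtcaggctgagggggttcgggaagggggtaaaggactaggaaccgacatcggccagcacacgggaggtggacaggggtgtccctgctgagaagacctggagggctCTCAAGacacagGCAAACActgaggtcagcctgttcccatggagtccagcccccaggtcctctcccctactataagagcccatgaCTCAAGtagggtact
Sftpa1: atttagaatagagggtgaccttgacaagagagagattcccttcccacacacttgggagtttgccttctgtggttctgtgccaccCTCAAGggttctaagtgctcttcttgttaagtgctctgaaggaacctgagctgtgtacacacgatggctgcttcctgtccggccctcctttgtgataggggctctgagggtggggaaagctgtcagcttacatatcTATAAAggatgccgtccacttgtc
Lamp3: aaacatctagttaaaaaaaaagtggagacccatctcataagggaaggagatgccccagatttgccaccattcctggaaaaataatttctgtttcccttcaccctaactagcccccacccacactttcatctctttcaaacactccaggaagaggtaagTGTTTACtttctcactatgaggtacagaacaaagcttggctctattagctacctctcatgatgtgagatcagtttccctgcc
CTCAAG was found 2 times in the Sftpb window and 1 time in the Sftpa1 window, and 13.3% of all 32851 RefSeq windows of this length hold it on either strand. The Sftpb window also holds TGTTTGC on the other strand (4.3% of all windows), the Lamp3 window TGTTTAC (3.2%) and the Sftpa1 window TATAAA (12.4%). CCAAT, also searched on both strands, was in none of the 3 (33.8% of all windows). The matches are descriptions of these letters, not sites shown to be bound.

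Library totals ran from 16806806 to 25980876 estimated fragments. Replicate 2 of β-arrestin 1 -/- hypoxia had the lowest total and replicate 0 of β-arrestin 2 -/- normoxia the next, and these 2 libraries stood apart. Among genes whose mRNA is at least 4810 bases long, the median gene lay 0.29 and 0.25 below its own mean over the libraries in log2 CPM, and among genes whose mRNA is at most 2097 bases long 0.45 and 0.21 above it. Replicates 1 and 2 of labelled β-arrestin 2 -/- normoxia leaned the same way, less far, with -0.11 and -0.09 (long) and 0.08 and 0.10 (short). So did wild type hypoxia replicate 2 (-0.08 and 0.04). The long medians were 0.07, 0.09 and 0.11 in wild type normoxia and 0.16, 0.01 and 0.04 in labelled β-arrestin 2 -/- hypoxia. CPM here is a gene's share of the library's fragments after scaling, not corrected for length. Replicate 0 of β-arrestin 2 -/- normoxia also stood apart in cell markers. Mean deviations in log2 CPM were 2.82 (cardiac muscle), 1.97 (club) and 0.95 (ciliated), each the highest of all libraries. Those of type 1 cell (-0.39) and endothelial markers (-0.28) were the lowest. In replicate 2 of β-arrestin 1 -/- hypoxia the cardiac, club and ciliated values were -1.03, -1.17 and 0.04. Wild type normoxia held the 3 lowest club values of the 18 libraries, from -2.12 to -1.80, against 0.77 to 1.22 in wild type hypoxia. Its cardiac values ran from -4.99 to -1.23, against 0.34 to 0.98 in wild type hypoxia. The part of such markers in the values below was not tested. Arrb1 stood at 104 ± 15.3 (normoxia) and 87.7 ± 3.62 CPM (hypoxia) in β-arrestin 1 -/- against 472 ± 7.35 and 369 ± 57.9 CPM in wild type (SD, n = 3). Arrb2 was not called different where it should be missing, with 40.7 ± 5.19 CPM in the β-arrestin 2 -/- libraries against 32.3 ± 2.55 CPM in wild type in normoxia (log2 difference 0.33 ± 0.20, SE, adjusted p = 0.256 by edgeR) and 34.4 ± 3.57 against 39.0 ± 5.02 CPM in hypoxia (-0.18 ± 0.20, adjusted p = 0.821), so that group is called the libraries labelled β-arrestin 2 -/-. Arrb1 was lower in those libraries than in wild type in normoxia, at 289 ± 28.6 CPM (-0.70 ± 0.12, adjusted p = 0.00435 by edgeR), and stood at 364 ± 5.74 CPM in hypoxia (-0.02 ± 0.12, adjusted p = 0.986).

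Surfactant genes were among the most abundant mRNAs of these lungs. By FPKM, which corrects for transcript length, Sftpb, needed to spread the lipid film, led with 1573 ± 181 (SD over 18 libraries) and ranked 15 of 23351 features. Sftpa1 followed with an FPKM of 1134 ± 203 and Sftpd with 692 ± 91.0. Slc34a2, the apical sodium-phosphate cotransporter of type 2 cells, stood at 365 ± 73.8 FPKM, and Napsa, the aspartic protease that processes the precursor of surfactant protein B, at 217 ± 40.2 FPKM. The FPKM of Lamp3, a membrane glycoprotein of lamellar bodies, was 119 ± 20.8, that of Lpcat1, the acyltransferase that makes dipalmitoylphosphatidylcholine, 84.9 ± 23.1, and that of Abca3 63.7 ± 11.8. Etv5, an ETS-family factor that maintains the type 2 cell state, was lowest with 19.5 ± 3.91 FPKM. The order held in 18 of 18 libraries for every pair of neighbours except Lpcat1 and Abca3, which kept it in 15 of 18. Among these neighbours, only the ranges of Sftpd and Slc34a2 and of Abca3 and Etv5 did not overlap over all libraries. Together the 9 genes took between 0.752% (labelled β-arrestin 2 -/- hypoxia replicate 0) and 1.27% (wild type normoxia replicate 2) of a library's fragments.

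None of the 9 genes passed the test for chronic hypoxia in any genotype. The count was 0 of 9 in wild type, where 4.76% of all 15388 genes were called at an adjusted p below 0.05, 0 of 9 in β-arrestin 1 -/- (2.95% of all genes) and 0 of 9 in the libraries labelled β-arrestin 2 -/- (21.9%). Averaged over the 3 genotypes, which uses all 18 libraries, the count was again 0 of 9, against 19.4% of all genes. By edgeR's quasi-likelihood test 0 of these values had even an unadjusted p below 0.05, and DESeq2 and limma called 0 as well. The averaged log2 changes lay between -0.12 (Abca3) and 0.16 (Napsa), with a median of 0.01 against 0.00 for all genes. Their 95% confidence intervals allow at most a 1.40-fold change in either direction for any of the 9, the widest being that of Lpcat1, and in the single genotypes at most 1.78-fold, 1.69-fold and 1.77-fold.

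**Figure D1:**
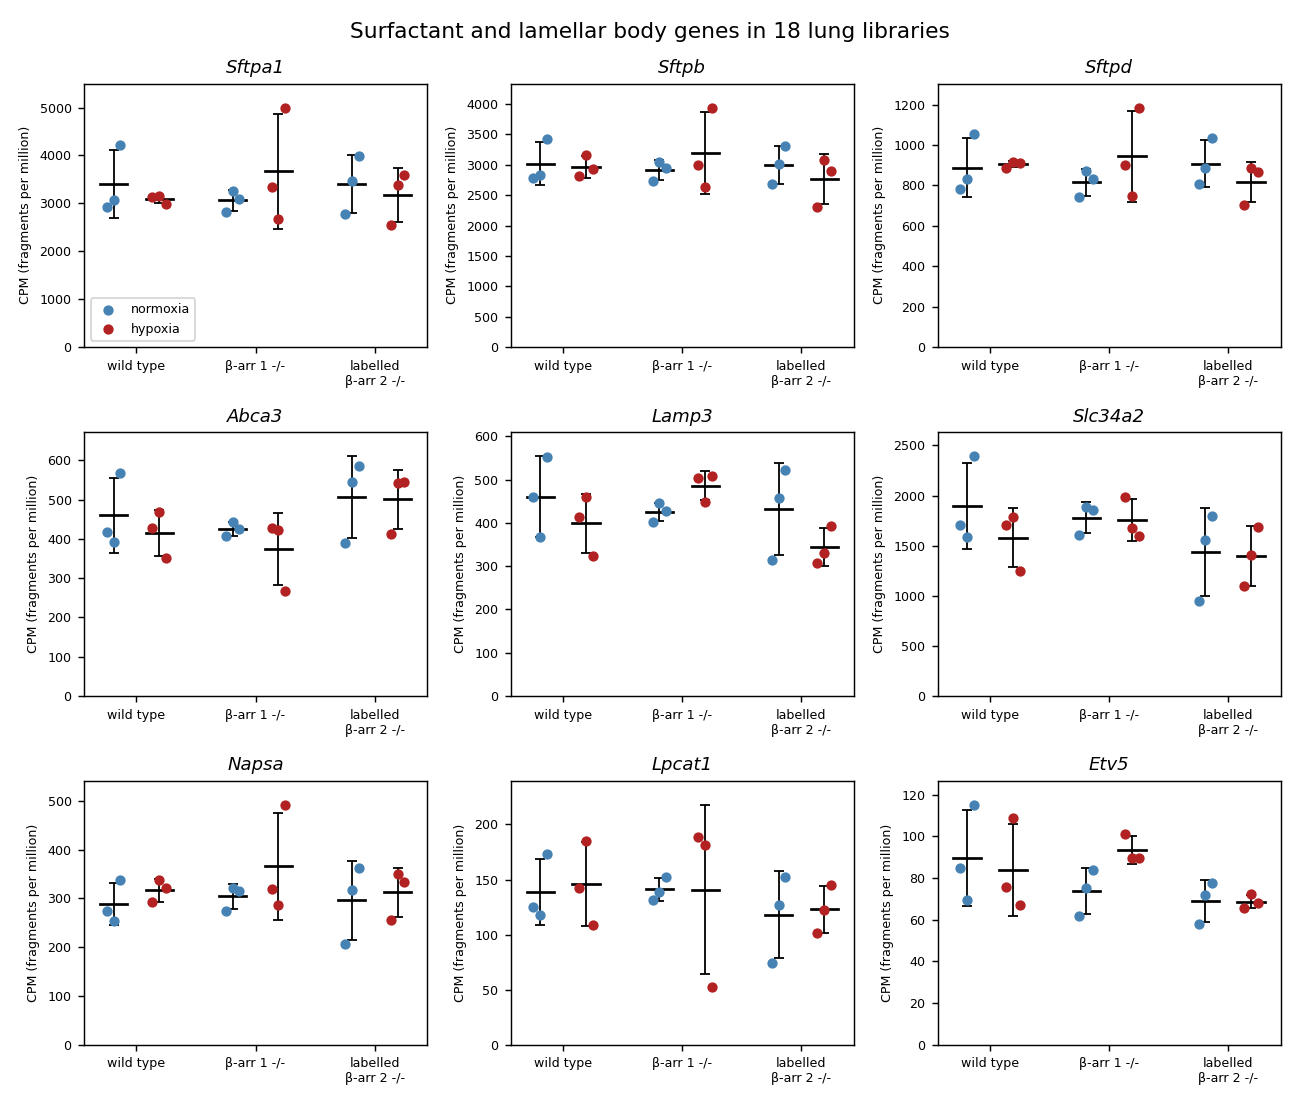
Scaled CPM (linear axis from 0) of 9 surfactant and lamellar body genes in 18 lung libraries, with 1 point per library, blue for normoxia and red for hypoxia, and bars for the mean and SD of 3 libraries. Normoxia and hypoxia overlap in every genotype for every gene except Lamp3 and Etv5 in β-arrestin 1 -/-, and Lpcat1 has its lowest point, 52.6 CPM, in β-arrestin 1 -/- hypoxia.

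The collectins and surfactant protein B kept close levels. Sftpa1 stood at 2932, 3063 and 4218 CPM in wild type normoxia and at 3141, 3149.8 and 2995 CPM in wild type hypoxia, a log2 change of -0.14 ± 0.21 (SE, adjusted p = 0.803, edgeR's quasi-likelihood test with Benjamini-Hochberg adjustment, used for all log2 changes here). In β-arrestin 1 -/- it stood at 2826, 3264 and 3097 CPM in normoxia and 3346, 2671 and 4998 CPM in hypoxia (0.26 ± 0.21, adjusted p = 0.525, and -0.02 without replicate 2 of hypoxia). The labelled β-arrestin 2 -/- libraries held 2782, 3457 and 3989 CPM in normoxia and 2546, 3377 and 3597 CPM in hypoxia (-0.10 ± 0.21, adjusted p = 0.751). The 4998 CPM of β-arrestin 1 -/- hypoxia replicate 2 was the highest of the 18, and normoxia and hypoxia overlapped in each genotype. Averaged over genotypes, the log2 change of Sftpa1 was 0.01 ± 0.12 (95% confidence interval -0.25 to 0.26).

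Sftpb stood at 2787, 2833 and 3425 CPM in wild type normoxia and 2812, 3165 and 2924 CPM in wild type hypoxia (log2 change -0.02 ± 0.15, adjusted p = 0.965). Its values in β-arrestin 1 -/- were 2728, 3052 and 2941 CPM in normoxia and 2995, 2631 and 3941 CPM in hypoxia (0.13 ± 0.15, adjusted p = 0.669, and -0.05 without replicate 2 of hypoxia). For the labelled β-arrestin 2 -/- libraries they were 2679, 3015 and 3302 CPM in normoxia and 2311, 3086 and 2903 CPM in hypoxia (-0.12 ± 0.15, adjusted p = 0.602). High and low libraries were the same as for Sftpa1 at both ends, with the maximum again in β-arrestin 1 -/- hypoxia replicate 2 and the minimum in labelled β-arrestin 2 -/- hypoxia replicate 0. The averaged log2 change of Sftpb, 0.00 ± 0.09, had the narrowest interval of the 9 (-0.19 to 0.18). Sftpd ranged from 702 to 1185 CPM with the same 2 libraries at the ends, and its averaged log2 change was 0.03 ± 0.09 (-0.17 to 0.22).

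**Figure D2:**
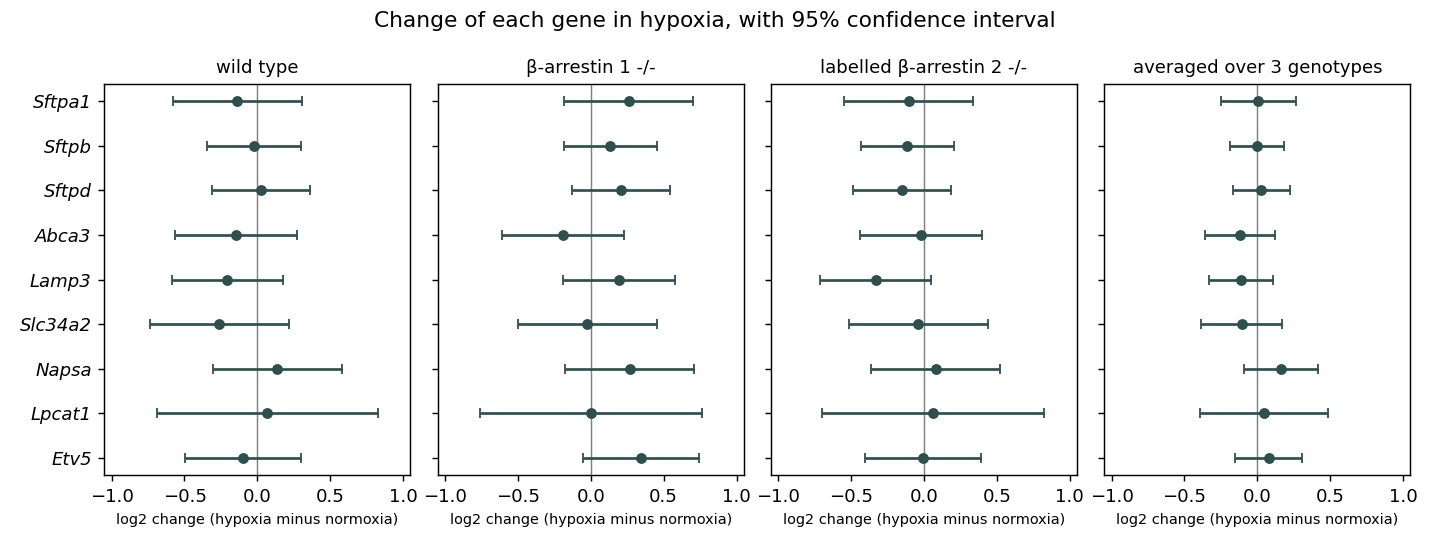
Log2 change between hypoxia and normoxia of 9 genes, each point with its 95% confidence interval, in 3 genotypes and averaged over them (x axis, log2 scale, 0 for no change). Every interval includes 0, and the averaged ones are the narrowest.

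Of the lamellar body genes, Lamp3 stood at 461, 367 and 553 CPM in wild type normoxia and 414, 459 and 324 CPM in wild type hypoxia (log2 change -0.21 ± 0.18, adjusted p = 0.604). In β-arrestin 1 -/- its 403, 446 and 427 CPM in normoxia lay below the 504, 448 and 507 CPM in hypoxia without overlap (0.19 ± 0.18, adjusted p = 0.596). Lamp3 in the labelled β-arrestin 2 -/- libraries was at 314, 458 and 523 CPM in normoxia and 307, 331 and 392 CPM in hypoxia (-0.33 ± 0.18, adjusted p = 0.191). The sign of the Lamp3 value thus differed between the arrestin lines, but neither difference of responses from wild type passed the test (0.40 ± 0.25, adjusted p = 0.807, in β-arrestin 1 -/- and -0.12 ± 0.25, adjusted p = 0.769, in the labelled libraries). Without the 2 libraries of lowest total, a fit chosen after seeing the data, the Lamp3 value in the libraries labelled β-arrestin 2 -/- was -0.50 ± 0.17 (adjusted p = 0.0427 by edgeR). This was the single call among all fits of the 9 genes. In this comparison that fit called 3847 of all genes, and the fit of all 18 libraries 3370 (21.9%), so 1 call among 9 genes does not stand out. Over the other alternatives the lowest adjusted p of any of the 9 genes was 0.0584.

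Abca3 stood at 418, 393 and 569 CPM in wild type normoxia and 427, 468 and 352 CPM in wild type hypoxia (log2 change -0.15 ± 0.20, adjusted p = 0.772). The β-arrestin 1 -/- libraries held 408, 443 and 425 CPM in normoxia and 429, 424 and 268 CPM in hypoxia (-0.19 ± 0.20, adjusted p = 0.644, and 0.00 without replicate 2 of hypoxia). Values in the labelled β-arrestin 2 -/- libraries were 390.0, 544 and 586 CPM in normoxia and 412, 543 and 546 CPM in hypoxia (-0.02 ± 0.20, adjusted p = 0.956, and -0.17 without replicate 0 of normoxia). The lowest value was that of β-arrestin 1 -/- hypoxia replicate 2, the library in which Sftpa1, Sftpb, Sftpd and Napsa were highest.

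Lpcat1 had the widest spread of the 9. It stood at 125, 118 and 173 CPM in wild type normoxia and 143, 185 and 109 CPM in wild type hypoxia (log2 change 0.07 ± 0.36, adjusted p = 0.956). For β-arrestin 1 -/- the values were 131, 139 and 152 CPM in normoxia and 189, 181 and 52.6 CPM in hypoxia (0.00 ± 0.36, adjusted p = 0.999). The labelled β-arrestin 2 -/- libraries held 74.5, 127 and 152 CPM in normoxia and 102, 123 and 145 CPM in hypoxia (0.06 ± 0.36, adjusted p = 0.920, and -0.18 without replicate 0 of normoxia). The lowest values of Lpcat1 were in the 2 libraries of lowest total, and without β-arrestin 1 -/- hypoxia replicate 2 its log2 change in that genotype was 0.39 in place of 0.00, still short of the test.

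Napsa and Slc34a2 also overlapped between normoxia and hypoxia in every genotype, as did all 9 genes in wild type, where 24.7% of all genes had groups apart, and in the labelled β-arrestin 2 -/- libraries, where 47.9% had. Napsa ranged from 207 (labelled β-arrestin 2 -/- normoxia replicate 0) to 491 CPM (β-arrestin 1 -/- hypoxia replicate 2), and its averaged log2 change of 0.16 ± 0.12 was the highest of the 9 (95% confidence interval -0.09 to 0.42), and 0.01 without the 2 libraries of lowest total. Within β-arrestin 1 -/- it was 0.27 ± 0.21 with all libraries and 0.00 without replicate 2 of hypoxia. Slc34a2 ranged from 948 CPM, in the same normoxia library as the minimum of Napsa, to 2391 CPM in wild type normoxia replicate 2, with an averaged log2 change of -0.11 ± 0.13 (-0.38 to 0.17).

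Etv5 stood at 84.7, 69.4 and 115 CPM in wild type normoxia and 75.7, 109 and 66.9 CPM in wild type hypoxia (log2 change -0.10 ± 0.19, adjusted p = 0.851). In β-arrestin 1 -/- its 62.0, 75.1 and 83.9 CPM in normoxia lay below the 101, 89.5 and 89.7 CPM in hypoxia without overlap (0.34 ± 0.19, adjusted p = 0.348). Etv5 in the labelled β-arrestin 2 -/- libraries was at 57.7, 71.7 and 77.7 CPM in normoxia and 65.8, 72.2 and 68.0 CPM in hypoxia (-0.01 ± 0.19, adjusted p = 0.977). Etv5 and Lamp3 were the only members, 2 of 9, whose groups did not overlap in β-arrestin 1 -/-, where 21.2% of all genes had groups apart, a share close to theirs.

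No difference between a line and wild type was called either. In normoxia 0 of 9 genes differed between β-arrestin 1 -/- and wild type (0.221% of all genes called), and 0 of 9 did in hypoxia (0.201%). Between the libraries labelled β-arrestin 2 -/- and wild type the counts were 0 of 9 in normoxia (9.49% of all genes) and 0 of 9 in hypoxia (0.923%). With edgeR no unadjusted p of these 36 tests was below 0.05, and DESeq2 and limma called 0. The lowest adjusted p from edgeR was that of Etv5 in the labelled libraries in normoxia, with a log2 difference of -0.38 ± 0.19 (adjusted p = 0.179), where 57.7, 71.7 and 77.7 CPM overlapped the 69.4 to 115 CPM of wild type, and -0.27 without replicate 0. Slc34a2 differed there by -0.40 ± 0.23 (adjusted p = 0.230, 95% confidence interval -0.88 to 0.08), with 948 CPM in replicate 0 far below the other two and a difference of -0.18 without it. In hypoxia, Sftpd alone had groups that did not overlap, with 702, 884 and 866 CPM in the labelled libraries under the 888, 915 and 911 CPM of wild type (-0.15 ± 0.16, adjusted p = 0.821), where 17.5% of all genes had groups apart. Groups of the 9 genes overlapped in the other 3 comparisons with wild type, where 22.6% (β-arrestin 1 -/-, normoxia), 9.79% (β-arrestin 1 -/-, hypoxia) and 44.1% (labelled libraries, normoxia) of all genes had groups apart.

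The hypoxia responses of the lines were also compared with that of wild type. The difference of responses was called for 0 of 9 genes in β-arrestin 1 -/-, where edgeR called 0% of all genes (898 had an unadjusted p below 0.05, and DESeq2 called 9 of all genes and 0 of the 9), and for 0 of 9 in the libraries labelled β-arrestin 2 -/- (6.05% of all genes). The largest values were those of Etv5 (0.44 ± 0.26), Lamp3 (0.40 ± 0.25) and Sftpa1 (0.40 ± 0.29) in β-arrestin 1 -/-, with adjusted p = 0.807, 0.807 and 0.822 by edgeR. The Sftpa1 value was 0.12 without β-arrestin 1 -/- hypoxia replicate 2. Intervals are wider here, and the widest, that of Lpcat1, allows a 2.21-fold difference.

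**Figure D3:**
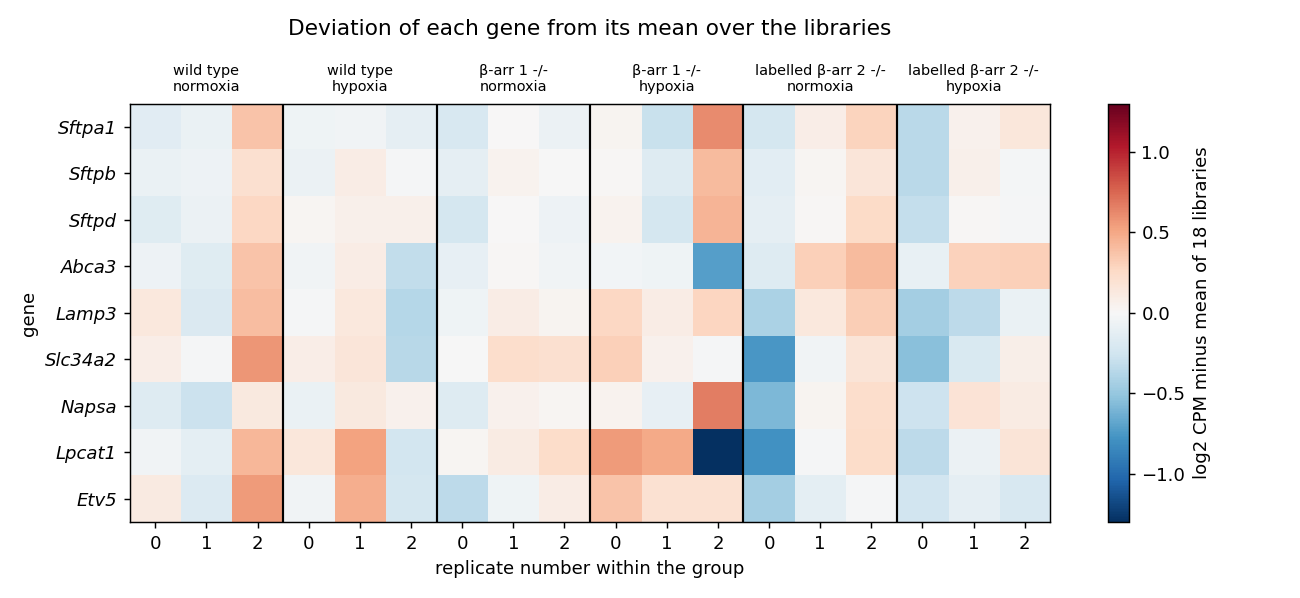
Log2 CPM of 9 genes in 18 libraries minus each gene's mean over the libraries (colour scale, red above and blue below the mean), with libraries by group and replicate number. Wild type normoxia replicate 2 is above the mean for all 9 genes, and β-arrestin 1 -/- hypoxia replicate 2 is high for Sftpa1, Sftpb, Sftpd and Napsa and low for Abca3 and Lpcat1.

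What varied was the single library. Over the 36 pairs of the 9 genes, Pearson's r of log2 CPM across 18 libraries had a median of 0.49 (range -0.20 to 0.95), with 29 pairs above 0. The points share library depth and scaling, so these are descriptions. The closest pairs were the secreted proteins, with r = 0.95 for Sftpb and Sftpd, 0.94 for Sftpa1 and Sftpd and 0.93 for Sftpa1 and Sftpb. Without the 2 libraries of lowest total, all 36 pairs were above 0 over 16 libraries (median 0.60, range 0.25 to 0.92), and r of Sftpa1 and Abca3 was 0.80 in place of 0.07. In β-arrestin 1 -/- hypoxia replicate 2, with the length of the longest coding transcript in GENCODE M21 in parentheses, Sftpd (1275 bases), Sftpb (1490 bases), Napsa (1560 bases) and Sftpa1 (2854 bases) were 0.42 to 0.67 above their means in log2 CPM, while Abca3 (6476 bases) was 0.71 and Lpcat1 (3675 bases) 1.29 below theirs. Length did not order the genes throughout: Lamp3 (3356 bases) and Etv5 (3975 bases), of lengths near that of Lpcat1, were 0.28 and 0.20 above their means there, and Slc34a2 (4176 bases) was 0.01 below. The part of transcript length in the results was not tested. Wild type normoxia replicate 2, whose total of 22854594 was within the range of the others, was above the mean for all 9 genes, by 0.12 for Napsa to 0.57 for Slc34a2.

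Genes that followed the mean deviation of the 9 most closely were named by r over the 18 libraries among 10821 other genes (mean log2 CPM 3 or more). Mlc1 came first with r = 0.90, then Lyz2 (lysozyme, of type 2 cells and macrophages) with 0.84, Slc26a9 (an anion transporter) with 0.83, Acp2 (a lysosomal phosphatase) with 0.82, Tmem154 with 0.82, Anpep (aminopeptidase N) with 0.81, Dram1 (a lysosomal membrane protein) with 0.79 and Ctsc (cathepsin C) with 0.78. Among these 8, Mlc1, Lyz2 and Dram1 were on the list of other type 2 cell markers. The median r was 0.43 over 22 other type 2 cell markers (range -0.71 to 0.90), 0.36 over 18 type 1 cell markers, 0.33 over 3 haemoglobin genes, 0.24 over 12 endothelial markers, 0.23 over 9 alveolar macrophage markers, -0.15 over 14 general epithelial markers, -0.40 over 11 cardiac muscle markers, -0.44 over 10 club cell markers and -0.51 over 8 ciliated cell markers, against 0.05 for all 10821. Over the lists related to surfactant it was 0.22 (30 lipid genes), 0.19 (12 transcription factors), 0.13 (20 processing and trafficking genes) and 0.10 (17 secretion genes). These r describe the libraries and carry no test.

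Single genes of related lists passed the test for hypoxia averaged over genotypes, in which 10.4% of all genes were called higher and 8.94% lower. The lists themselves were not tested. Lipid synthesis and transport had 12 of 32 genes higher and 3 lower, with a median log2 change of 0.13. Lpcat3, an acyltransferase that puts polyunsaturated chains on phospholipids, rose by 0.44 ± 0.05 (adjusted p = 2.35e-05), from 54.8 ± 2.21 to 74.3 ± 4.04 CPM in wild type (SD, n = 3). Scd2, a fatty acid desaturase, rose by 0.55 ± 0.09 (adjusted p = 0.000755), Abcg1, a sterol exporter, by 0.77 ± 0.12 (adjusted p = 0.000308) and Fabp5, a fatty acid binding protein, by 1.33 ± 0.18 (adjusted p = 0.000148). Chka, the choline kinase that opens phosphatidylcholine synthesis, fell by 0.51 ± 0.06 on the log2 scale (adjusted p = 2.94e-05), from 94.6 ± 2.44 to 67.5 ± 7.69 CPM in wild type. These 5 calls held in each of the 18 fits that left out 1 library. Of the 9, the acyltransferase gene Lpcat1 changed by 0.04 ± 0.21 and the lipid transporter gene Abca3 by -0.12 ± 0.11, and neither was called.

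The list for secretion, uptake and clearance had 8 of 23 genes higher, with a median of 0.12. P2ry2, the ATP receptor that triggers lamellar body exocytosis, rose by 0.77 ± 0.15 (adjusted p = 0.00233), from 9.90 ± 2.57 to 27.2 ± 12.4 CPM in wild type. It was called within wild type (1.46 ± 0.27, adjusted p = 0.00623) and stood at 16.9 ± 2.63 and 23.7 ± 3.44 CPM in β-arrestin 1 -/- (0.49 ± 0.26, adjusted p = 0.337) and at 11.3 ± 1.95 and 14.7 ± 2.82 CPM in the labelled libraries (0.37 ± 0.27, adjusted p = 0.322). Neither difference of these responses from that of wild type passed the test (adjusted p = 0.807 and 0.0882 by edgeR). Stx2, a syntaxin of the exocytic machinery, rose by 0.26 ± 0.05 (adjusted p = 0.00158), and Lipa, lysosomal acid lipase, by 0.46 ± 0.08 (adjusted p = 0.00103).

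Of 14 transcription factors of surfactant genes, 0 were higher and 2 lower, with a median of -0.04. Nkx2-1 fell by 0.27 ± 0.05 on the log2 scale (adjusted p = 0.00239), with 259 ± 11.2 and 225 ± 11.5 CPM in wild type normoxia and hypoxia, 262 ± 20.8 and 241 ± 20 CPM in β-arrestin 1 -/- and 285 ± 16.7 and 205 ± 18.8 CPM in the labelled libraries. That call held in each fit without 1 library. Nfib, a nuclear factor I family member, fell by 0.17 ± 0.05 (adjusted p = 0.0355), a call lost in 12 of 18 fits without 1 library, with wild type normoxia replicate 0 among those left out (adjusted p = 0.0657). Of 20 genes for protein processing and lamellar body trafficking, 0 were higher and 1 lower (median 0.06). That gene, Ap3m1, a subunit of the AP-3 sorting adaptor, fell by 0.17 ± 0.06 (adjusted p = 0.0454) and lost the call in 13 of 18 fits, with an adjusted p of up to 0.0949.

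Other markers of type 2 cells had 2 of 22 genes higher and 3 lower (median -0.10), shares near those of all genes. In the labelled β-arrestin 2 -/- libraries alone 0 were higher and 4 lower (11.1% and 10.8% of all genes). The higher ones were Fabp5 and Cd74, the invariant chain, which rose by 0.44 ± 0.13 (adjusted p = 0.0255); both are also made by macrophages. The lower ones were Acoxl, which fell by 0.64 ± 0.16 (adjusted p = 0.00896), Egfl6 by 0.46 ± 0.11 (adjusted p = 0.00651) and Ppp1r14c by 0.33 ± 0.08 (adjusted p = 0.00598) on the log2 scale. All 3 were called lower in the labelled libraries alone, with log2 changes of -1.34 for Acoxl and -0.90 for Egfl6. In wild type alone and in β-arrestin 1 -/- alone 0 of the 22 markers were called lower. Of these, Ppp1r14c stood at 108 ± 6.35 CPM in normoxia and 63.8 ± 5.92 CPM in hypoxia in the libraries labelled β-arrestin 2 -/- and at 83.1 ± 18.5 and 77.1 ± 4.78 CPM in wild type.

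**Figure D4:**
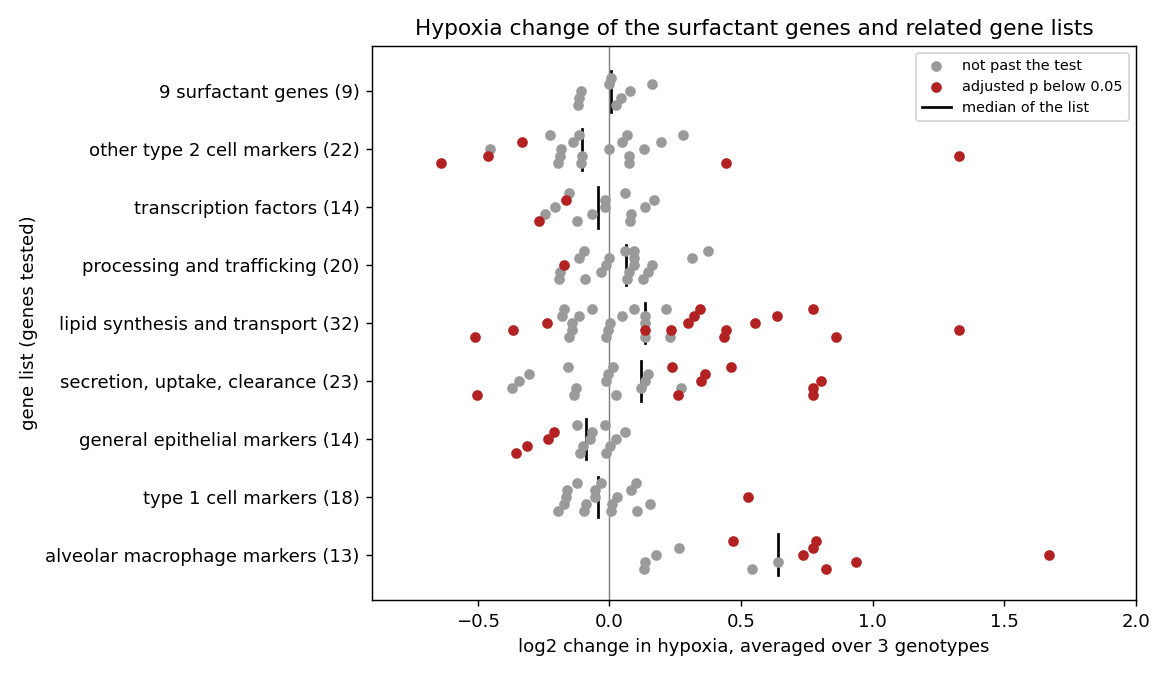
Log2 change in hypoxia averaged over 3 genotypes (x axis) for each tested gene of 9 lists (rows, with the number of genes), red for an adjusted p below 0.05, grey otherwise and a black bar for the median. The 9 surfactant genes lie between -0.12 and 0.16 and none is red, while the lipid and alveolar macrophage lists reach 1.33 and 1.67.

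Markers of other cells moved in the same comparison. General epithelial markers had 0 of 14 higher and 4 lower, among them Epcam with -0.31 ± 0.07 (adjusted p = 0.00331) and Cdh1 with -0.23 ± 0.06 (adjusted p = 0.0124). In the libraries labelled β-arrestin 2 -/- alone 5 of 14 were lower (10.8% of all genes), and Epcam stood at 125 ± 9.46 CPM in normoxia and 81.5 ± 6.36 CPM in hypoxia. Type 1 cell markers had 1 of 18 higher and 0 lower. Alveolar macrophage markers had 7 of 13 higher and 0 lower, with Chi3l3 at 1.67 ± 0.22 (adjusted p = 8.44e-05) and Ctsk at 0.78 ± 0.08 (adjusted p = 1.70e-05). Their summed FPKM ran from 283 to 454 in wild type normoxia and from 452 to 670.2 in wild type hypoxia, from 434 to 508 and 720.3 to 923 in β-arrestin 1 -/-, and from 388 to 419.8 and 603 to 901 in the labelled libraries, with none of the 13 at 0 in any group. The summed FPKM gives more weight to abundant genes, among them Car4 (mean FPKM 239 over 18 libraries) and Chi3l3 (174). Fabp5, Abcg1, Lpcat3, Lipa and Cd74 are known in macrophages too, and the part of macrophages in the values of these genes was not tested. The summed FPKM of club cell markers ran from 4368 to 5985 in wild type normoxia and from 6239 to 8083 in wild type hypoxia. It ran from 4953 to 7614 and 4315 to 6451 in β-arrestin 1 -/-, and from 6218 to 13132 and 7741 to 8176 in the labelled libraries. Scgb1a1, a club cell gene on this list, had the status HIDATA and is not in the sum. The part of club cell markers in the values of the 9 genes was not tested.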

How the data were processed

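Poly(A) RNA from about 30 mg of lung was made into unstranded libraries, per the labels' protocols. Per the submitters' processing notes, FastQC, TopHat and Cuffdiff were used with the mm10 build; for their versions and the annotation, the sources used here say nothing. Deposited by the authors were estimated counts, the fragments assigned to each gene in each library (93.3% whole), FPKM values, and Cuffdiff comparisons with a p-value, a q-value and a test score. Of 23356 features, 5 with the status HIDATA were left out and 20 with FAIL in some library were kept. Each genotype and exposure, per the labels, is a group.

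For edgeR 4.0.16 (R 4.3.3), estimated counts were rounded, TMM-scaled and filtered with filterByExpr on 6 groups (15388 genes). One fit held 18 libraries, and 10 contrasts were tested with its quasi-likelihood test, adjusting p-values over all genes after Benjamini and Hochberg (threshold 0.05). CPM are TMM-scaled, SE is from the F statistic, and r uses log2 CPM with a prior count of 2. A member's fragments numbered at least 840 in any library, so spread between libraries, more than counting, limits precision. Transcript lengths are those of the longest coding transcript in GENCODE M21.

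Alternatives were DESeq2 1.42.0, DESeq2 scaling within edgeR, no filter on counts, limma 3.58.1 on log2 FPKM with a pseudocount of 1 or 0.1 (FPKM of 1 or more in 3 libraries) or of 1 with no FPKM filter, fits of the compared groups alone, a replicate block, a scale without members and haemoglobin genes, and each library left out. The members, the lists and the rule for names were chosen with earlier results of these data known. The rule names the members, both arrestin genes, up to 6 of each other list (called genes by adjusted p, then by FPKM) and the 8 genes of highest r; Cd74 was named after its value was seen. A gene of the secretion list that the rule names is not reported here. The tests were tested on simulated data.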

Additional observations from a re-analysis of the deposited data

Results flagged for a closer look

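Some genes of the related lists had a hypoxia response in the libraries labelled β-arrestin 2 -/- that differed from that of wild type by edgeR's quasi-likelihood test of the difference itself, which called 6.05% of all genes. The counts were 4 of 32 lipid genes (Pnpla2, Lpin1, Lpin2 and Abca1), 3 of 22 other type 2 cell markers (Muc1, Chi3l1 and Ppp1r14c), 1 of 20 processing and trafficking genes (Nedd4l), 1 of 23 secretion genes (Gpr116) and 0 of 14 transcription factors. Values follow for the 4 that the rule for names took, which favours called genes. Pnpla2, the adipose triglyceride lipase, differed by 1.09 ± 0.16 (SE, adjusted p = 0.00440), with 219.7 ± 19.2 and 173 ± 20.8 CPM (SD, n = 3) in wild type normoxia and hypoxia and 161 ± 8.90 and 270.4 ± 10.3 CPM in the labelled libraries, and kept the call in each of 12 fits without 1 library. Nedd4l, a ubiquitin ligase, differed by 0.64 ± 0.17 (adjusted p = 0.0400), with a log2 change of -0.43 ± 0.12 in wild type and 0.22 ± 0.12 in the labelled libraries, and lost the call in 9 of 12 such fits. Muc1, a membrane mucin, differed by -0.54 ± 0.14 (adjusted p = 0.0388), with 0.27 ± 0.10 in wild type and -0.27 ± 0.10 in the labelled libraries, and lost the call in 9 of 12 fits. Ppp1r14c differed by -0.65 ± 0.19 (adjusted p = 0.0489) and lost the call in 11 of 12 fits, with an adjusted p of up to 0.115. The 9 surfactant and lamellar body genes gave no such difference.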

How the results depend on the processing

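The log2 changes of the 9 genes were recomputed 1647 times. In 1557 of these, all but those without the 2 libraries of lowest total, 0 were called (lowest adjusted p 0.0584), DESeq2 and limma included. Without the 2 libraries, an alternative chosen after seeing the data, 1 was called, Lamp3 in hypoxia in the libraries labelled β-arrestin 2 -/-. For that comparison the fit called 3847 of all genes. The sign differed in 202 of the 1647, none larger than 0.36 on the log2 scale. The largest move was 0.40 when 1 library was left out (Lpcat1, β-arrestin 1 -/- hypoxia replicate 2). Without the 2 libraries of lowest total Lpcat1 also moved by up to 0.40, and in the other alternatives the largest move was 0.22. The cause was not tested.

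Counts over all genes moved more. In the order hypoxia in wild type, in β-arrestin 1 -/- and in the libraries labelled β-arrestin 2 -/-, the counts were 733, 454 and 3370, and 1280, 841 and 4116 by DESeq2; 495, 47 and 4255 with only the groups compared; 1455, 445 and 3847 without the 2 libraries; and 209 to 943, 133 to 491 and 1710 to 3107 without 1 library (lowest without wild type normoxia replicate 1, β-arrestin 1 -/- normoxia replicate 0 and β-arrestin 2 -/- hypoxia replicate 0). Averaged hypoxia gave 2980, and 2387 to 4554 without 1 library. For β-arrestin 1 -/- against wild type in normoxia and hypoxia the counts were 34 and 31, and 176 and 155 by DESeq2, 109 and 12 with only the groups compared, 87 and 21 without the 2 libraries, 15 to 30 and 20 to 34 without 1. For the labelled libraries they were 1460 and 142, and 2753 and 481, 2638 and 84, 1509 and 349, 316 to 1922 and 52 to 298 in the same order. Differences of responses gave 0 and 931, and 9 and 1880 by DESeq2, 1 and 1540 with only the groups compared, 0 and 1491 without the 2 libraries, 0 and 313 to 2022 without 1, and 2 and 690.0 by limma without an FPKM filter. Of the lists in averaged hypoxia, lipid genes higher ranged from 9 to 13 (12), secretion genes higher from 6 to 9 (8) and other type 2 markers lower from 3 to 6 (3) over all alternatives.

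Libraries of the same replicate number were not alike throughout. Over 45 same-numbered pairs the correlation of deviations from group means ran from -0.59 to 0.63 (median 0.01), with 15 pairs above 0.1. Libraries of different numbers were not compared, so a pairing of some groups was not tested. With the replicate block 0 members were called, and all genes called numbered 656, 456 and 3315 for hypoxia in the 3 genotypes and 2975 averaged.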

Other observations

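In the authors' deposited table of Cuffdiff comparisons, which pairs all 6 groups, a q-value below 0.05 among the 9 genes was listed for 2 pairs, both between the arrestin lines and outside the comparisons above. Lamp3 was lower in labelled β-arrestin 2 -/- hypoxia than in β-arrestin 1 -/- hypoxia (q = 0.0189), and Etv5 was lower in labelled β-arrestin 2 -/- normoxia than in β-arrestin 1 -/- hypoxia (q = 0.0435), a pair that differs in genotype and exposure at once. How many of all features Cuffdiff listed for these pairs was not counted, so the 2 listings cannot be set against a share of all genes.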
